A study of Mus musculus with 15 samples.

Results

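Transcripts of 30 genes of the B cell lineage, from the earliest precursor to the antibody-secreting plasma cell, were compared between leukaemic and normal mouse bone marrow. The 30 genes were taken by symbol from a table of 38315 genes, in which each symbol had 1 row. The table came from bulk sequencing of total RNA in 15 marrow samples. Leukaemic marrow (n = 7) came from NUP98-NSD1/FLT3-ITD mice with acute myeloid leukaemia (AML), and normal marrow from wild-type mice as whole marrow (n = 4) and as lineage-negative marrow (n = 4). The fusion NUP98-NSD1 links a nucleoporin to a histone methyltransferase, and FLT3-ITD is a tandem duplication inside the FLT3 receptor kinase. The series text calls the leukaemic mice transgenic. The promoter that drives each allele, the cells that express it, and the strain and age of the mice are not given in the sources used here, nor are the antigens used for lineage depletion. The labels number the samples without stating that each is a separate animal, so the p-values measure the spread between these samples.

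B cells form in the marrow from lymphoid progenitors. The precursors rearrange their immunoglobulin genes with the RAG recombinase and the polymerase encoded by Dntt, and display the new heavy chain with a surrogate light chain before a complete receptor is made. Cells that leave this stage switch off those genes and carry mature surface proteins such as CD20, CD21 and CD23, while plasma cells switch on the secretory programme and load antibody with the J chain. Lineage depletion is usually made with antibodies to mature cells, B cells among them.

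The estimated depth was 20.2 to 35.0 M reads (M, mega) in AML, 11.4 to 17.2 in whole marrow and 20.2 to 28.05 in lineage-negative marrow, and levels are given as normalized counts. Stem and early progenitor markers summed to 15739 to 19667 normalized counts in lineage-negative marrow and 1393 to 2656 in whole marrow, which held 741653 to 1833370 of erythroid markers against 25599 to 56656. The deposited scaling placed the median of the 18941 genes tested 0.67 (log2) higher in AML than in whole marrow and 0.59 higher in lineage-negative than in whole marrow, but 0.02 between AML and lineage-negative marrow. Trimmed-mean scaling (TMM) brought these medians to −0.01, −0.09 and 0.03. Whole marrow replicate 1 had the lowest table total of its group and was the lowest of its group for all 30 B cell genes.

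All 30 genes passed the filter on low values. Where 3 values are given for AML, they are the lowest, the median and the highest of its samples. Calls required an absolute log2 difference of 1 or more, on values with 1 added, and a limma adjusted p below 0.05. Against whole marrow, 18 of the 30 genes were lower in AML and 2 were higher, where 11.3% of all genes tested were called lower and 27.3% higher. With TMM scaling the counts were 21 and 1, against 16% and 4.74% of all genes. Against lineage-negative marrow, 18 were higher and 2 lower, where 17.7% of all genes were called higher and 12.5% lower. Lineage-negative marrow itself was lower than whole marrow for 26 of the 30 and higher for none, where 17.2% of all genes were called lower and 33.1% higher. The 30 genes had a median log2 difference of −1.62 between AML and whole marrow and of 2.10 between AML and lineage-negative marrow. Between lineage-negative and whole marrow it was −3.31. The comparisons share groups, so they are not separate evidence. By these calls AML lay between the normal groups for 11 genes, which were lower than in whole marrow and higher than in lineage-negative marrow. The share of all genes with both calls was not computed. Some of these calls were lost in other settings, as given below. Single AML samples could lie outside this order, as replicate 3 did above whole marrow for Ms4a1 and Blk. Rag2 and Dntt were lower than in both, Xbp1 and Prdm1 were higher than in both. In these bulk samples fewer B cells and less RNA per cell cannot be told apart.

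**Figure D1:**
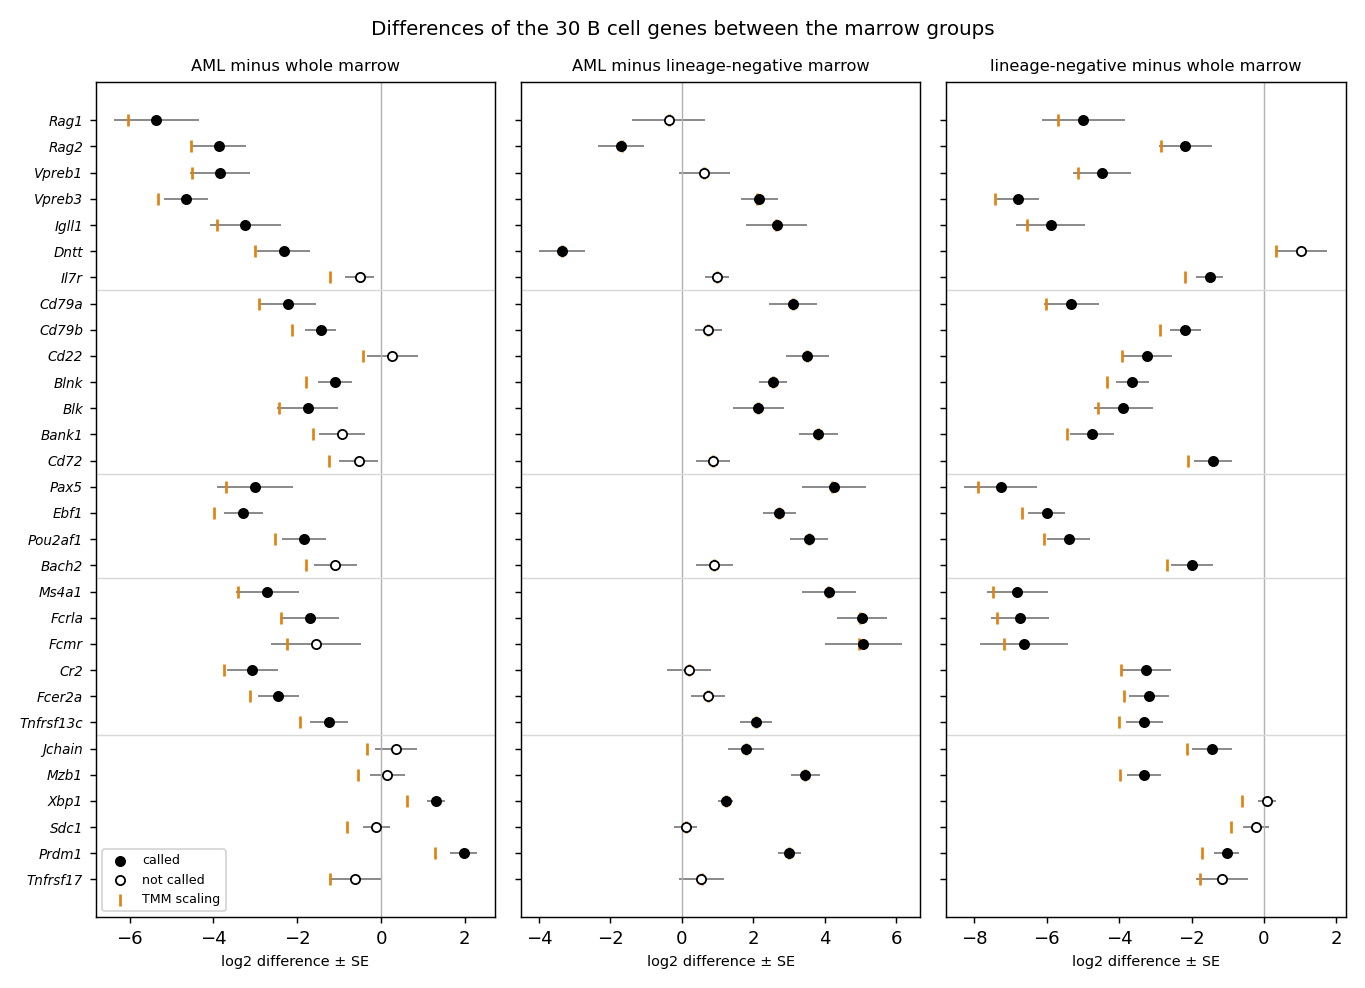
Log2 difference (x axis, with 1 SE) of each of the 30 B cell genes (y axis, grouped by role) in the 3 comparisons; filled points were called, open points were not, and orange ticks are the values with TMM scaling. The 4 points farthest to the left against whole marrow are the precursor genes Rag1, at −5.37, Vpreb3, Rag2 and Vpreb1, and the plasma cell genes lie between −0.61 and 1.97.

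Of 7 precursor genes, 6 were lower in AML than in whole marrow, and the remaining one, Il7r, was not called. For the same 6 genes every AML sample lay below every whole marrow sample. Over all genes tested 11.3% were called lower, and the share without overlap between the groups was not computed. Against lineage-negative marrow the role split, with Igll1 and Vpreb3 higher, Rag2 and Dntt lower, and Rag1, Vpreb1 and Il7r not called.

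Rag1 (ENSMUSG00000061311, chr2:101468627-101479846, strand −, in the table's coordinates) encodes the catalytic subunit of the recombinase. Its normalized counts were 752, 1339.9, 1073 and 2341 in whole marrow replicates 1 to 4, 47.2, 48.5, 41.4 and 23.5 in lineage-negative marrow, and 3.82, 137, 2.45, 308, 38.7, 3.70 and 189.8 in AML replicates 1 to 7. AML replicates 4, 7 and 2 stood above all lineage-negative samples, while replicates 1, 3 and 6 stood at or below the level of 3 reads. The difference from whole marrow was −5.37 (SE 1.01, adjusted p = 0.000182). The difference from lineage-negative marrow was not called, at −0.37 (SE 1.01, adjusted p = 0.787), and turned to a positive value without AML replicate 1, 3 or 6. Rag2 (ENSMUSG00000032864, chr2:101455063-101462874, strand +), its partner subunit, had 71.8, 111, 89.7 and 181 in whole marrow and 22.7, 22.05, 29.1 and 18.9 in lineage-negative marrow, and 0, 5.66 and 24.8 as its lowest, median and highest AML values. Of the 7 AML values of Rag2, 2 stood at or below the level of 3 reads. Its groups overlapped between AML and lineage-negative marrow. Rag2 was 14.7-fold lower in AML than in whole marrow on the scale with 1 added, a log2 difference of −3.88 (SE 0.65, adjusted p = 6.33e-05). Against lineage-negative marrow the difference of −1.70 (SE 0.65, adjusted p = 0.0383) lost its call without any of AML replicates 1, 5 and 6 or any lineage-negative sample (−1.79 to −1.53, adjusted p = 0.0539 to 0.0926), with a pseudocount of 0.1 (−2.28, adjusted p = 0.0818), without the filter (−1.70, adjusted p = 0.0824) and with the 2 groups fitted alone (−1.70, adjusted p = 0.0748). The mean Rag1 level in AML went from 97.6 to 62.6 without replicate 4.

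Vpreb1 and Igll1 encode the 2 parts of the surrogate light chain. Vpreb1 (ENSMUSG00000059305, chr16:16686267-16688707, strand −) had 116, 152, 140.1 and 188 normalized counts in whole marrow, 3.63, 5.95, 7.93 and 5.87 in lineage-negative marrow and 1.23, 8.40 and 65.7 as the lowest, median and highest of the 7 AML samples. Of the 7 AML values, 3 stood at or below the level of 3 reads. The Vpreb1 groups did not overlap between AML and whole marrow, and they overlapped between AML and lineage-negative marrow. The log2 differences were −3.84 (SE 0.71, adjusted p = 0.000154) and 0.63 (SE 0.71, adjusted p = 0.497). Vpreb2, a near copy of Vpreb1, had 0.87 ± 0.986 in AML (SD, n = 7) and 15.7 ± 8.62 (SD, n = 4) in whole marrow, and reads of the pair may have been split between them. Igll1 (ENSMUSG00000075370, chr16:16678535-16681849, strand −) had 223, 292, 263 and 387 in whole marrow, 8.17, 2.64, 3.53 and 2.61 in lineage-negative marrow and 1.23, 52.9 and 217 in AML as the lowest, median and highest. AML replicate 4, at 217, was the closest to the whole marrow range. Igll1 fell against whole marrow (−3.24 (SE 0.85, adjusted p = 0.00266)) and rose against lineage-negative marrow (2.65 (SE 0.85, adjusted p = 0.0147)). The latter call was lost with quantile scaling (1.88, adjusted p = 0.0936) and with voom, a count-based weighting, on estimated reads (2.999, adjusted p = 0.0662). Without replicate 4 the mean in AML went from 65.6 to 40.4 for Igll1 and from 18.9 to 11.1 for Vpreb1. Vpreb3, which encodes a protein of the same family expressed in B cells, had 253, 462, 419.5 and 562 in whole marrow, 2.72, 0, 4.41 and 7.83 in lineage-negative marrow and 6.36, 14.2 and 37.8 in AML. No AML sample reached the whole marrow range, and AML replicate 1, the lowest, lay under the highest lineage-negative sample. Vpreb3 differed by −4.65 (SE 0.52, adjusted p = 1.27e-06) from whole marrow and by 2.16 (SE 0.52, adjusted p = 0.00195) from lineage-negative marrow, where 2 of the 4 samples were under 3 reads.

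Dntt (ENSMUSG00000025014, chr19:41017714-41047964, strand +) encodes terminal transferase, which adds untemplated bases at immunoglobulin joints. On the deposited scale it was the only one of the 30 genes with every lineage-negative sample above every whole marrow sample, at 1235, 1181, 961 and 663 against 435, 435, 437 and 634. AML samples had 13.6, 145 and 416 as the lowest, median and highest, so all 7 lay below both normal groups. AML differed by −2.33 (SE 0.64, adjusted p = 0.00384) from whole marrow and by −3.36 (SE 0.64, adjusted p = 0.000233) from lineage-negative marrow. Lineage-negative marrow and whole marrow did not pass the test, at 1.03 (SE 0.72, adjusted p = 0.216). This difference was 0.34 with TMM scaling (adjusted p = 0.724), and it was called only with the 2 groups fitted alone (1.03, adjusted p = 0.00296). Il7r, the receptor of the interleukin that drives precursor growth, had 331 ± 163 (SD, n = 7) in AML, 148 ± 12.2 (SD, n = 4) in lineage-negative marrow and 444 ± 165 (SD, n = 4) in whole marrow. Its difference from lineage-negative marrow, 0.99 (SE 0.34, adjusted p = 0.0217), stood just under the fold threshold and passed it without AML replicate 1 or 5 or lineage-negative replicate 3 or 4 (1.01 to 1.19, adjusted p = 0.00313 to 0.0408). With TMM scaling Il7r was called lower against whole marrow (−1.21, adjusted p = 0.00842).

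**Figure D2:**
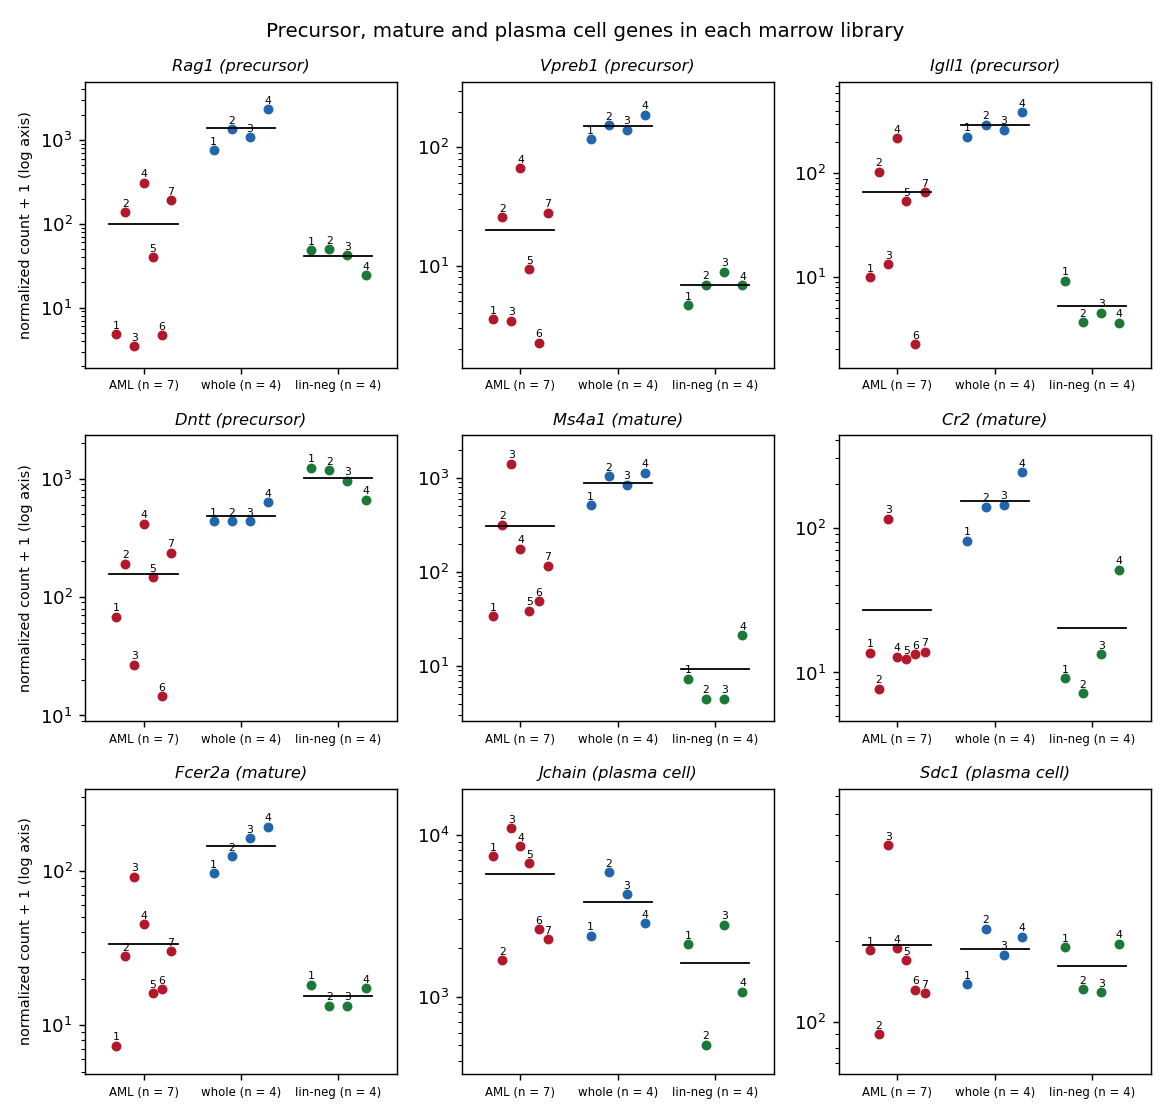
Normalized counts plus 1 (log axis) of 4 precursor, 3 mature and 2 plasma cell genes in each library, labelled by replicate number, with group means as lines. AML replicate 3 is the highest AML sample for Ms4a1, Cr2 and Fcer2a and is near the bottom for Rag1 and Vpreb1.

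The stretches before the start of 6 of these genes are shown because 5 of them are precursor genes that fell against whole marrow, and Cd79a serves as a gene of all B cell stages. They are the 160 bases before the RefSeq start on build GRCm38.p6, written 5′ to 3′, with letters matching a motif in capitals. The capitals mark, on either strand, the E-boxes CAGGTG and CAGCTG, the octamer ATGCAAAT, the EBF1-type half-sites CCCNNGGG, the ETS-type letters GAGGAAGT and an ER stress element. The Rag1 bases after the start were not found in the GENCODE M21 transcripts of the gene.
Rag1, chr2:101649533-101649692, strand −: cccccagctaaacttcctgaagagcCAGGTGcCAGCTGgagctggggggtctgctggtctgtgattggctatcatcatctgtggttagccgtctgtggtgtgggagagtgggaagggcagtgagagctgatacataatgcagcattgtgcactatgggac
Vpreb1, chr16:16869256-16869415, strand −: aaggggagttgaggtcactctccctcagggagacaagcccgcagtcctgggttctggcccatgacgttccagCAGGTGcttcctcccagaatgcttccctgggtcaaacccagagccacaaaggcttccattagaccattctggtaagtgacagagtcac
Igll1, chr16:16863986-16864145, strand −: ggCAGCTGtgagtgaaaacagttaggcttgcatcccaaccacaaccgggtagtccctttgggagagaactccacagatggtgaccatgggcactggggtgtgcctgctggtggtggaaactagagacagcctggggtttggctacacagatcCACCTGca
Dntt, chr19:41029115-41029274, strand +: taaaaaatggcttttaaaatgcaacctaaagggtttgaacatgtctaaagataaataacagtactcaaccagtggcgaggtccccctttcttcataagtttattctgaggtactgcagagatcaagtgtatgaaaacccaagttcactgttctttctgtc
Vpreb3, chr10:75948140-75948299, strand +: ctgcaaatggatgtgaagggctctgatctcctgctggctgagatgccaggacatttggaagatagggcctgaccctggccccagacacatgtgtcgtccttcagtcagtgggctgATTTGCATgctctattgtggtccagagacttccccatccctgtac
Cd79a, chr7:24897337-24897496, strand +: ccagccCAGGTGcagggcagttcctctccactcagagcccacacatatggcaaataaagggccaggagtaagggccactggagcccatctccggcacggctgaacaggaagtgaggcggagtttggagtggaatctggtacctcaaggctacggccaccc

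Of 30 genes, 26 had a window in the promoter table, and Cd79b, Ms4a1, Blk and Mzb1 had none. The search covered 13 motifs over the 250 bases before the start, chosen after the sequences had been looked at. CAGGTG occurred in 13 of the 26 genes, Rag1, Vpreb1, Igll1 and Cd79a among them, and in 19.4% of all genes with a window. CAGCTG occurred in 5, against 14.7% of all genes, and CCCNNGGG in 4, against 13.4%. The octamer occurred in Vpreb3 and Blnk, against 1.81% of all genes, and GAGGAAGT in Cd72, against 2.79%. The ER stress element occurred in none, against 0.13%. The 7 other motifs were a longer EBF1-type site (1 of 26, 0.914% of all genes), CCCNNGGGA (2, 6.45%), ACGTG (5, 18.5%), TTCCGGAA (none, 0.662%), TTGGGAA (1, 5.47%), GGGCGG (6, 35.4%) and TATAAA (3, 14.3%). The Dntt stretch shown holds none of the 6 motifs in capitals. A match says only that these letters are present.

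Genes of the B cell receptor and its signalling rose against lineage-negative marrow in 5 of 7 cases, with Cd79b and Cd72 not called. Against whole marrow 4 of the 7 fell, and Cd22, Bank1 and Cd72 were not called. Over all genes 17.7% were called higher than in lineage-negative marrow and 11.3% lower than in whole marrow. AML replicate 3 was the highest AML sample for all 7.

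Cd79a (ENSMUSG00000003379, chr7:24596806-24601622, strand +), the signalling chain that every B cell receptor needs, had 648, 1034, 1019 and 1264 normalized counts in whole marrow, 34.3, 5.29, 20.3 and 69.2 in lineage-negative marrow and 59.5, 162 and 1230.3 as the lowest, median and highest AML values. AML replicate 3, at 1230.3, fell within the whole marrow range, and the other 6 lay below it. The differences were −2.22 (SE 0.67, adjusted p = 0.00759) and 3.11 (SE 0.67, adjusted p = 0.000795). Without AML replicate 3 the mean went from 348 to 201, and without lineage-negative replicate 4 from 32.3 to 19.9. Its partner chain Cd79b had 659.6 ± 499 (SD, n = 7) in AML, 329 ± 56.8 (SD, n = 4) in lineage-negative marrow and 1520.3 ± 442 (SD, n = 4) in whole marrow, and fell against whole marrow (−1.44 (SE 0.37, adjusted p = 0.00262)). Against lineage-negative marrow Cd79b was not called (0.73 (SE 0.37, adjusted p = 0.121)).

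Cd22, an inhibitory receptor, had 302, 524, 545 and 565 in whole marrow, 67.2, 40.5, 22.9 and 89.4 in lineage-negative marrow and 144, 1759, 2430.2, 714, 150.1, 714 and 394 in AML replicates 1 to 7. AML replicates 2, 3, 4 and 6 lay above every whole marrow sample and replicates 1 and 5 below, so the groups overlapped. The difference from lineage-negative marrow was 3.51 (SE 0.61, adjusted p = 9.88e-05); from whole marrow it was 0.27 (SE 0.61, adjusted p = 0.716), and with TMM scaling −0.43. Cd72, another inhibitory receptor, had 473 ± 431 (SD, n = 7) in AML, 184 ± 26.2 (SD, n = 4) in lineage-negative marrow and 492 ± 84.2 (SD, n = 4) in whole marrow. Its difference from lineage-negative marrow was called without AML replicate 1 (1.17, adjusted p = 0.0263).

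Blnk, the adaptor below the receptor, had 259, 375, 366 and 518 in whole marrow, 22.7, 28.2, 23.8 and 44.4 in lineage-negative marrow and 58.00, 254 and 347 in AML. All AML samples exceeded all lineage-negative samples. The differences were −1.09 (SE 0.40, adjusted p = 0.0238) and 2.54 (SE 0.40, adjusted p = 3.51e-05), and the former lost its call without AML replicate 1 or 6 or whole marrow replicate 4 (−0.95 to −0.83, adjusted p = 0.0421 to 0.079). Blk, a kinase of the Src family, had 167, 346, 293 and 404 in whole marrow, 12.7, 32.6, 7.93 and 33.9 in lineage-negative marrow and 17.9, 76.6 and 569.9 in AML. Its groups overlapped in both comparisons with AML. Blk differed by −1.75 (adjusted p = 0.0403) from whole marrow, a call lost without AML replicate 1, 5, 6 or 7 or any whole marrow sample (−2.01 to −1.39, adjusted p = 0.0552 to 0.0954). It rose by 2.14 (adjusted p = 0.0203) on the log2 scale against lineage-negative marrow, a call lost without lineage-negative replicate 1 or 3 (1.76 to 1.97, adjusted p = 0.0562 to 0.0826) and with voom (2.10, adjusted p = 0.0882). With variances estimated robustly neither Blk call was made (−1.75, adjusted p = 0.0919 and 2.14, adjusted p = 0.0599). Bank1, a scaffold of receptor signalling, had 226, 391, 404 and 540.3 in whole marrow, 9.08, 10.6, 9.69 and 28.7 in lineage-negative marrow and 62.9, 159 and 1072 in AML. All AML samples lay above the lineage-negative range (3.81 (SE 0.55, adjusted p = 1.11e-05)). Against whole marrow the value was −0.94 (SE 0.55, adjusted p = 0.14), not called, and it was called lower without AML replicate 3 (−1.35, adjusted p = 0.00884) and with TMM scaling (−1.63). Without AML replicate 3 the mean went from 164 to 96.2 for Blk and from 300.3 to 172 for Bank1.

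Transcription factors of B cell identity fell against whole marrow in 3 of 4 cases, and the same 3 rose against lineage-negative marrow. Among all genes tested 11.3% were called lower than in whole marrow and 17.7% higher than in lineage-negative marrow. Pax5, which commits precursors to the B lineage, had 665, 836, 1089.8 and 1696 normalized counts in whole marrow, 18.2, 0, 1.76 and 33.3 in lineage-negative marrow and 25.4, 149.9 and 638 in AML. No AML sample reached the whole marrow range, and AML replicate 1 fell within the lineage-negative one. Pax5 differed by −3.01 (SE 0.90, adjusted p = 0.0068) and 4.26 (SE 0.90, adjusted p = 0.000629), with lineage-negative values of 2 samples under 3 reads and a mean that went from 13.3 to 6.64 without replicate 4. Ebf1, which acts above Pax5, had 499.9, 614, 633 and 1081 in whole marrow, 12.7, 7.93, 4.41 and 17.6 in lineage-negative marrow and 25.4, 86.3 and 152 in AML. It was the one member of this role with AML apart from both normal groups. Its log2 difference was −3.29 (adjusted p = 1.17e-05) from whole marrow and 2.72 (adjusted p = 7.15e-05) from lineage-negative marrow.

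Pou2af1, a coactivator of octamer-binding factors, had 499.9, 869.6, 905 and 1428 in whole marrow, 38.1, 3.53, 29.1 and 32.6 in lineage-negative marrow and 84.9, 248 and 757 in AML. AML replicate 3 lay within the whole marrow range and the other AML samples below it. The differences were −1.84 (SE 0.53, adjusted p = 0.00554) and 3.56 (SE 0.53, adjusted p = 1.76e-05). Bach2, a repressor that holds back plasma cell fate, had 436 ± 243 (SD, n = 7) in AML, 187 ± 50.4 (SD, n = 4) in lineage-negative marrow and 825 ± 503 (SD, n = 4) in whole marrow. Neither comparison with AML was called, at −1.09 (adjusted p = 0.072) and 0.90 (adjusted p = 0.167). Bach2 was called lower against whole marrow without AML replicate 2 or 7 (−1.27 to −1.24, adjusted p = 0.0397 to 0.0478) and with TMM scaling (−1.78), and higher against lineage-negative marrow without AML replicate 6 (1.34, adjusted p = 0.00388).

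Genes of mature B cells fell against whole marrow in 5 of 6 cases, with Fcmr not called, and rose against lineage-negative marrow in 4, with Cr2 and Fcer2a not called. The shares over all genes were 11.3% called lower and 17.7% called higher in these comparisons. The falls of Fcrla and Tnfrsf13c lost the call without some single libraries. AML replicate 3 was the highest AML sample for all 6. Ms4a1 (ENSMUSG00000024673, chr19:11227039-11243605, strand −), which encodes CD20, had 509.8, 1042, 850.5 and 1134 in whole marrow, 6.35, 3.53, 3.53 and 20.2 in lineage-negative marrow and 33.1, 317, 1417, 177, 37.8, 48.1 and 115 in AML replicates 1 to 7. AML replicate 3 exceeded every whole marrow sample, and the other 6 lay below all of them. The differences were −2.71 (SE 0.75, adjusted p = 0.00416) and 4.10 (SE 0.75, adjusted p = 0.000163). Without AML replicate 3 the mean in AML went from 306 to 121, and without lineage-negative replicate 4 the mean there went from 8.41 to 4.47.

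Cr2 (ENSMUSG00000026616, chr1:194819119-194859024, strand −), the complement receptor CD21, had 79.9, 138, 143 and 240.1 in whole marrow, 8.17, 6.17, 12.3 and 50.3 in lineage-negative marrow and 12.7, 6.75, 114, 11.8, 11.3, 12.3 and 12.9 in AML. AML replicate 3 and lineage-negative replicate 4 stood apart from the rest of their groups. Cr2 differed by −3.07 (SE 0.61, adjusted p = 0.000296) from whole marrow and by 0.20 (SE 0.61, adjusted p = 0.817) from lineage-negative marrow, where the sign depended on the library left out. Without those 2 libraries in turn the AML mean went from 25.98 to 11.3 and the lineage-negative mean from 19.2 to 8.89. Fcer2a (ENSMUSG00000005540, chr8:3731737-3744175, strand −), the low-affinity IgE receptor CD23, had 96.03, 123, 162 and 192 in whole marrow, 17.2, 12.3, 12.3 and 16.3 in lineage-negative marrow and 6.36, 26.99 and 90.7 in AML. All AML samples lay below the whole marrow range, and AML replicates 5 and 6 lay within the lineage-negative one. The differences were −2.45 (SE 0.49, adjusted p = 0.000279) and 0.73 (SE 0.49, adjusted p = 0.238).

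Fcmr, the receptor for IgM, had 229, 360.4, 357 and 375 in whole marrow, 0.908, 0, 0 and 60.7 in lineage-negative marrow and 40.7, 836, 930.2, 163, 13.2, 40.7 and 65.8 in AML. AML replicates 2 and 3 exceeded every whole marrow sample and the other 5 lay below, and the value of −1.55 (SE 1.08, adjusted p = 0.217) was not called, but was with voom (−2.32, adjusted p = 0.0268). Its rise against lineage-negative marrow, 5.08 (SE 1.08, adjusted p = 0.000696), was set against 3 samples under 3 reads and 1 at 60.7; without that one the mean there went from 15.4 to 0.303. With voom this call was lost (5.53, adjusted p = 0.0587). Without AML replicate 3 the AML mean went from 298 to 193. Fcrla, an intracellular Fc receptor-like protein, had 472, 722, 697 and 829.5 in whole marrow, 8.17, 0, 7.05 and 19.6 in lineage-negative marrow and 32.1, 268 and 543 in AML. Every AML sample exceeded the lineage-negative range, and AML replicates 2 and 3 entered the whole marrow range. Fcrla rose by 5.04 (log2, adjusted p = 8.76e-06) against lineage-negative marrow. Its fall against whole marrow, −1.70 (SE 0.71, adjusted p = 0.0424), lost the call without AML replicate 1, 5 or 6 or any whole marrow sample (−1.87 to −1.26, adjusted p = 0.0674 to 0.0899), with a pseudocount of 0.1 (−1.71, adjusted p = 0.156), without the filter (−1.70, adjusted p = 0.0524) and with robust variances (−1.70, adjusted p = 0.0994). Tnfrsf13c, the receptor for the survival factor BAFF, had 229.8, 389.9, 325 and 387 in whole marrow, 29.05, 31.7, 25.6 and 44.4 in lineage-negative marrow and 50.9, 126 and 498 in AML. All AML samples exceeded the lineage-negative ones (2.07 (SE 0.45, adjusted p = 0.000899)). Its fall against whole marrow, −1.24 (SE 0.45, adjusted p = 0.0231), lost the call without AML replicate 1 or whole marrow replicate 2 or 4 (−1.15 to −0.999, adjusted p = 0.045 to 0.0594).

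Of the 6 plasma cell genes, 2 rose against whole marrow and none were called lower, and 4 rose against lineage-negative marrow. Over all genes 27.3% were called higher against whole marrow and 17.7% against lineage-negative marrow, and with TMM scaling 1 of the 6, Prdm1, was called higher against whole marrow. Jchain (ENSMUSG00000067149, chr5:88667668-88675750, strand −), which encodes the chain that joins IgM and IgA into polymers, had 2376, 5862, 4275 and 2838 in whole marrow, 2104, 502, 2782 and 1068 in lineage-negative marrow and 7390.2, 1678, 10992, 8498, 6645, 2612 and 2264 in AML. AML samples lay below, within and above the whole marrow range. The difference from whole marrow was 0.36 (SE 0.50, adjusted p = 0.539), with the sign reversed by TMM scaling (−0.34), and that from lineage-negative marrow was 1.80 (SE 0.50, adjusted p = 0.00587). The lower level in lineage-negative than in whole marrow lost its call without whole marrow replicate 2 or 3 or lineage-negative replicate 2 or 4 (−1.35 to −0.97, adjusted p = 0.0677 to 0.137) and with robust variances (−1.44, adjusted p = 0.0787). Sdc1 (ENSMUSG00000020592, chr12:8821323-8843715, strand +), which encodes the plasma cell surface protein CD138, had 137, 222, 177 and 207 in whole marrow, 189, 131, 128 and 195 in lineage-negative marrow and 88.9, 169 and 457 in AML. The 3 groups overlapped, with AML replicate 3 alone above all normal samples. Neither −0.11 (SE 0.32, adjusted p = 0.771) nor 0.10 (SE 0.32, adjusted p = 0.821) was called.

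Mzb1, a chaperone of antibody assembly, had 115, 245, 251 and 197 in whole marrow, 20.8, 6.17, 32.6 and 27.4 in lineage-negative marrow and 153, 186 and 663 in AML. It rose against lineage-negative marrow (3.45 (SE 0.42, adjusted p = 1.33e-06)) and was not called against whole marrow (0.15 (SE 0.42, adjusted p = 0.77)), where TMM scaling gave −0.55. Xbp1, the factor that drives secretory capacity, had 1198, 2755, 2602 and 2112 in whole marrow, 1676, 2477, 2310.0 and 2415 in lineage-negative marrow and 3729.6, 5201 and 6299 in AML. All AML samples exceeded all normal samples. Xbp1 rose by 1.31 on the log2 scale (adjusted p = 4.76e-05) against whole marrow and by 1.22 (adjusted p = 9.58e-05) against lineage-negative marrow. With TMM scaling the former was 0.61 (adjusted p = 0.00167), under the fold threshold, as with quantile scaling (0.56, adjusted p = 0.00328) and voom (0.61, adjusted p = 0.00179). Prdm1, the repressor that ends the B cell programme in plasma cells, had 26.9, 30.8, 49.05 and 40.9 in whole marrow, 31.8, 11.5, 14.1 and 16.3 in lineage-negative marrow and 92.5, 157 and 229 in AML. Its AML samples also exceeded all normal samples. Prdm1 differed by 1.97 (SE 0.32, adjusted p = 4.26e-05) and 3.003 (SE 0.32, adjusted p = 2.25e-07); the former was 1.29 with TMM scaling and 2.81 with an estimated background subtracted, and kept its call in both. In whole marrow this background came to 38.5% of its mean Prdm1 level, estimated from olfactory and vomeronasal receptor genes. Both genes are also active in other secretory and myeloid cells. Lineage-negative marrow was lower than whole marrow for Prdm1 (−1.03 (SE 0.36, adjusted p = 0.0165)), a call lost without whole marrow replicate 3 or 4 or lineage-negative replicate 2 or 3 (−0.97 to −0.85, adjusted p = 0.0375 to 0.0577), with a pseudocount of 5 (−0.88, adjusted p = 0.0236), with quantile scaling (−0.94, adjusted p = 0.0213) and with that background subtracted (−0.23, adjusted p = 0.676). Tnfrsf17, the receptor BCMA of long-lived plasma cells, was low in every group, at 9.87 ± 8.30 (SD, n = 7) in AML, 4.62 ± 2.48 (SD, n = 4) in lineage-negative marrow and 10.7 ± 0.666 (SD, n = 4) in whole marrow. Neither comparison with AML was called.

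Which AML sample was highest differed between the roles. AML replicate 3 was the highest AML sample for 22 of the 30 genes, 21 of them among the 23 genes that are not precursor genes. For 6 of the 7 precursor genes it was among the lowest 3 AML samples. In this sample Ms4a1 stood at 1417 beside Rag1 at 2.45, a log2 ratio of 8.68. In whole marrow the ratio ran from −1.05 to −0.33, in lineage-negative marrow from −3.45 to −0.21 and in the other AML samples from −0.80 to 3.39. Of the 7 precursor genes, 4 were highest in AML replicate 4, 2 in replicate 7 and 1, Il7r, in replicate 3.

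**Figure D3:**
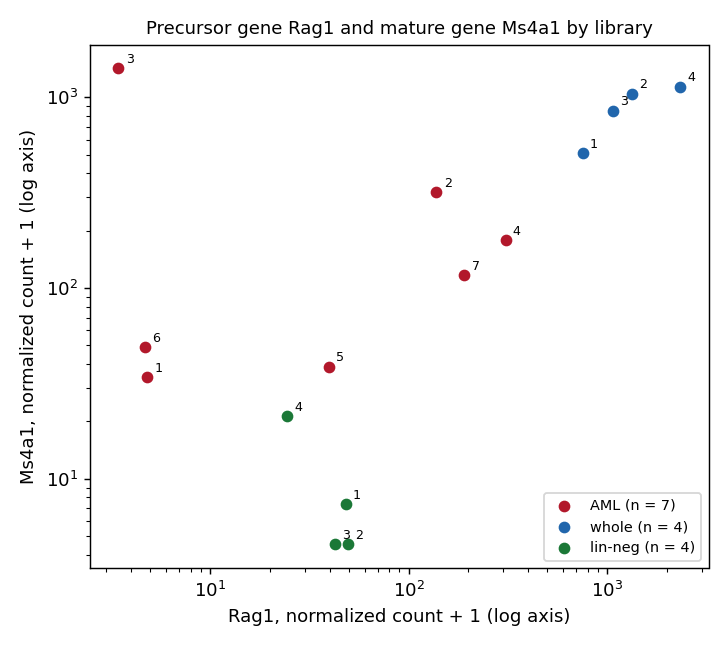
Rag1 against Ms4a1 (normalized counts plus 1, both log axes) in each library, labelled by replicate number. Whole marrow samples lie together at the upper right, and AML replicate 3 lies at the top left with Ms4a1 at 1417 and Rag1 at 2.45.

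**Figure D4:**
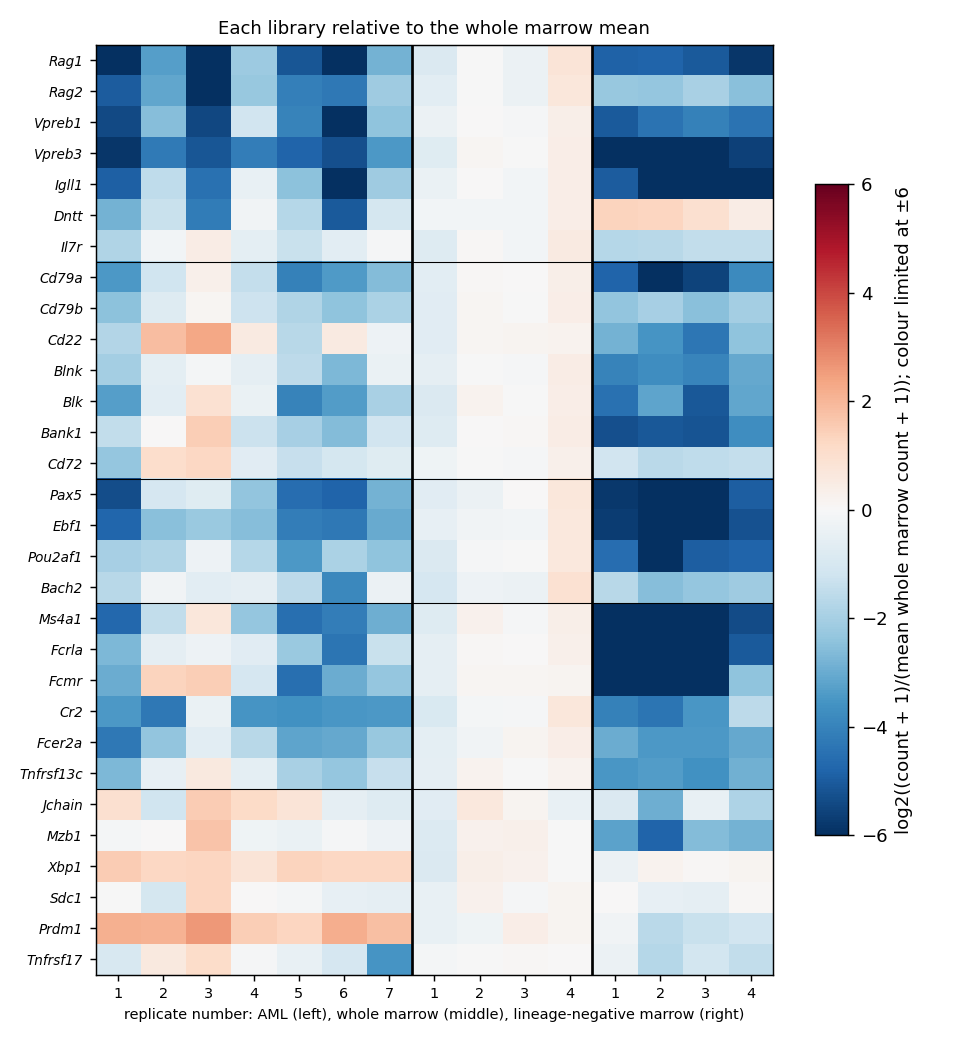
Log2 ratio of each library's normalized count plus 1 to the whole marrow mean plus 1, with genes in rows grouped by role and libraries in columns. AML replicate 3 is above or near the whole marrow mean in most receptor, mature and plasma cell rows and below it in 6 of 7 precursor rows, and the lineage-negative columns are below it in most rows.

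Markers of other cell types also differed between AML samples. The 12 measured markers of plasmacytoid dendritic cells summed to 17318, 15978 and 16299 normalized counts in AML replicates 2, 4 and 7, and to 4288 to 11658 in the others. The sums were 2722 to 4926 in whole marrow and 4189 to 5197 in lineage-negative marrow. Siglech, a defining marker, had 2169.6, 1883 and 2224 in the same 3 AML samples against 181 in replicate 3 and 55.5 in replicate 6. The 3 AML samples with the most Rag1 thus also had the most of these markers, of which 6 of 12 were called higher in AML than in whole marrow and 8 higher than in lineage-negative marrow. With TMM scaling 3 of the 12 were called higher than in whole marrow. None of the 12 was at 0 in an AML or whole marrow sample. T cell markers, 15 genes, summed to 8202 and 8166 in AML replicates 6 and 3, and to 1995 to 5359 in the other AML samples. They summed to 998.6 to 1545 in whole marrow and 447.7 to 754.5 in lineage-negative marrow. Of the 15, 10 were called higher in AML than in whole marrow and all 15 higher than in lineage-negative marrow, and with TMM scaling 1 was called higher than in whole marrow. None of the 15 was at 0 in any sample. AML replicate 6 had the highest T cell sum and was the highest AML sample for none of the 30 B cell genes.

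Erythroid markers were lower in AML than in whole marrow for 10 of 10 genes, with a median log2 difference of −7.29, and summed to 3180 to 30313 normalized counts in AML. Neutrophil markers, 12 genes, summed to 441587 to 1434430 in AML, 446674 to 1182550 in whole marrow and 91087 to 156644 in lineage-negative marrow. Of the 12, 10 were higher in AML than in lineage-negative marrow, 1 was lower, and none was called against whole marrow. Of 11 monocyte and macrophage markers, 6 were called higher and 1 lower in AML than in whole marrow, and all 11 were higher than in lineage-negative marrow. With TMM scaling 3 of the 11 were called higher and 1 lower than in whole marrow, and 1 neutrophil marker was called lower. Over all genes 27.3% were called higher and 11.3% lower than in whole marrow, and 4.74% and 16% with TMM scaling. Against lineage-negative marrow the shares were 17.7% and 12.5%. The part of any of these cell types in the B cell gene results was not tested.

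Within lineage-negative marrow, replicate 4 was the highest sample for 15 of the 30 genes. For Cr2 it had 50.3 against 6.17 to 12.3, for Ms4a1 20.2 against 3.53 to 6.35 and for Bank1 28.7 against 9.08 to 10.6. The 15 T cell markers also summed highest in this replicate, at 754.5 against 447.7 to 534.0. Among them Cd3e was highest there, at 20.2 against 7.05 to 11.8, but Cd3g was not, at 31.3 against 31.7 in replicate 2. The cause was not tested.

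Per kilobase of exon, the most abundant of the 30 genes in AML was Jchain, at 2275 ± 1424 normalized counts per kilobase (SD, n = 7), followed by Xbp1 at 1592 ± 234 and Cd79b at 461 ± 348. In whole marrow Jchain stood at 1525 ± 625, Cd79b at 1062 ± 309, Cd79a at 681 ± 175 and Xbp1 at 667 ± 216 (SD, n = 4), and the spread of each overlapped that of the next. In AML the spread of Jchain and Xbp1 overlapped, and that of Cd79b overlapped Cd79a, at 239 ± 285. By this level Rag1 ranked 9 of 30 in whole marrow and 25 of 30 in AML.

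The remaining genes of the pathway were counted in 5 lists, beside 27.3% higher and 11.3% lower over all genes against whole marrow, and 17.7% and 12.5% against lineage-negative marrow. Of 22 other B cell genes, 7 were higher in AML (Cd74 2.73 (adjusted p = 0.00039)) and 3 lower, and against lineage-negative marrow 17 were higher (Cd74 6.96 (adjusted p = 6.41e-09)) and none lower. Of 27 tested regulators of early B and lymphoid progenitors, 7 were higher and 3 lower than in whole marrow (Irf8 2.33 (adjusted p = 1.51e-06), Arpp21 −2.17 (adjusted p = 0.00092)), and 9 and 5 against lineage-negative marrow (Irf4 4.40 (adjusted p = 4.42e-08), Myb −2.47 (adjusted p = 1.75e-07)). Of 25 genes of receptor signalling, 12 were higher and none lower than in whole marrow (Fyn 1.85 (adjusted p = 4.7e-06)), and 16 and 1 against lineage-negative marrow (Cd38 4.38 (adjusted p = 4.89e-07), Cd81 −1.02 (adjusted p = 0.012)). Of 22 plasma cell and secretory genes, 12 were higher and none lower than in whole marrow (Ern1 2.19 (adjusted p = 2.74e-07)), and 6 and 1 against lineage-negative marrow (Slamf7 4.86 (adjusted p = 3.93e-08), Fkbp11 −1.95 (adjusted p = 0.000283)). Of 6 ligands of the B cell genes, 1 and 5 were higher in these comparisons (Tnfsf13 1.97 (adjusted p = 4.58e-05), Tnfsf13b 6.20 (adjusted p = 5.06e-10)) and none lower. With TMM scaling, where 4.74% of all genes were called higher and 16% lower than in whole marrow, the counts higher and lower were 3 and 7 for the other B cell genes, 1 and 4 for the early regulators, 1 and 0 for receptor signalling, 2 and 0 for the secretory genes and 1 and 2 for the ligands. Against lineage-negative marrow TMM scaling gave the same counts as the deposited scaling for all 5 lists.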

How the data were processed

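Total RNA was extracted with TRIzol and libraries followed a stranded total RNA protocol, per the labels' protocols. The submitters' processing notes name Partek, STAR, DESeq2 and the build mm10, without versions. The authors deposited 1 table of 15 columns whose values have the unit signal: read counts per gene divided by a DESeq2 size factor of the poscounts type, per the name of the table. The counting step and its strand setting are not given in the sources used here, so overlapping and antisense genes may share reads. The table names no build. Of 30 B cell genes, 3 have the same start as in GENCODE M21 (GRCm38), so gene coordinates are given as in the table, and promoter stretches have coordinates of their own.

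Between 85.5% and 89.5% of the low values in a library were whole multiples of 1 step, the value of 1 read, within 0.02 of a step. Whole reads were therefore not recovered, no count model was run, and depth was estimated as the table total divided by the step. Genes with at least 10 normalized counts in at least 4 samples were kept, 18941 in all. The values plus 1, on the log2 scale, entered 1 limma fit of 3 group means with an empirical Bayes trend (two-sided; R 4.3.3, limma 3.58.1), and p-values received Benjamini-Hochberg adjustment across all 18941 genes. The fit was tested on simulated data. The members and all gene lists were chosen with earlier results of these data known. Each normal sample's value, with each AML value or their lowest, median and highest, is given for the 9 genes of the precursor, mature and plasma cell contrast and for each gene called against lineage-negative marrow. From other lists the called gene with the highest and the one with the lowest log2 difference are named, and 1 such gene is not reported here. Alternatives were pseudocounts of 0.1 and 5, quantile and TMM scaling, no filter or a mean of 50 or more, voom on estimated reads, subtraction of a background estimated from 1611 receptor genes, robust variances, array weights, a replicate block, pairs of groups alone, AML replicates 5 and 6 left out together, and each library left out. Promoter windows came from a RefSeq table.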

Additional observations from a re-analysis of the deposited data

Results flagged for a closer look

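A sample stood far from the rest of its group, by the gap to its nearest neighbour as a share of the group's range, in 18 of the 90 combinations of gene and group. In groups of normally distributed values chance would flag about 1 in 20. The rule was applied to counts without a log scale, so that rate need not hold here, and these combinations share libraries. AML replicate 3 gave 9 of them, with normalized counts of Cd79a 1230.3, Ms4a1 1417, Blk 569.9, Bank1 1072, Cr2 114, Pou2af1 757, Mzb1 663, Sdc1 457 and Tnfrsf13c 498. In each it was the highest AML sample, and the next highest was 317 for Ms4a1 and 12.9 for Cr2. AML replicate 4 gave 1, Vpreb1 65.7, where the next was 26.97. Lineage-negative replicate 4 gave 4, with Ms4a1 20.2, Bank1 28.7, Fcmr 60.7 and Cr2 50.3, all the highest of that group. Lineage-negative replicate 1 gave 1, Igll1 8.17, against 3.53 in the next sample. Whole marrow replicate 1 gave 2, Cd22 302 and Fcmr 229, both the lowest of the group, and whole marrow replicate 4 gave Dntt 634, the highest.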

How the results depend on the processing

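Of 2511 log2 differences recomputed for the 30 genes under 28 settings, 2367 kept their direction and their side of the threshold, 73 lost the call, 33 gained one and 38 changed sign, 16 of them under another scaling. Leaving out 1 library at a time, 14 to 19 genes were lower than in whole marrow and 17 to 20 higher than in lineage-negative marrow. Genes lower in AML than in lineage-negative marrow numbered 1 or 2: 1 with a pseudocount of 0.1, without a filter, with a mean of at least 50, with the 2 groups fitted alone, without AML replicates 5 and 6 together, and without AML replicate 1, 5 or 6 or any 1 lineage-negative sample. Genes higher in AML than in whole marrow numbered 1 with TMM, quantile and voom scaling. The count for lineage-negative above whole marrow was 0, and 1 with the 2 groups alone. The median of all genes between AML and whole marrow was −0.0100 with TMM, and −0.0887 between lineage-negative and whole marrow. Quantile scaling gave 0.12 and 0.25, and −0.12 between AML and lineage-negative marrow.

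With TMM scaling the log2 differences that changed sign were Cd22 −0.43, Jchain −0.34 and Mzb1 −0.55 for AML against whole marrow, and Xbp1 −0.61 for lineage-negative against whole marrow. With quantile scaling the log2 differences that changed sign were Cd22 −0.47, Jchain −0.38, Mzb1 −0.62 and Tnfrsf17 0.11 for AML against whole marrow, and Cr2 −0.13 and Tnfrsf17 −0.00783 for AML against lineage-negative marrow, and Xbp1 −0.51 and Tnfrsf17 0.12 for lineage-negative against whole marrow. With voom on estimated reads with TMM the log2 differences that changed sign were Cd22 −0.46, Jchain −0.34 and Mzb1 −0.60 for AML against whole marrow, and Xbp1 −0.61 for lineage-negative against whole marrow. With receptor background subtracted the log2 differences that changed sign were Cr2 −0.0357 for AML against lineage-negative marrow. With array weights the log2 differences that changed sign were Jchain −0.0554 and Mzb1 −0.23 for AML against whole marrow, and Rag1 0.43 and Cr2 −0.30 for AML against lineage-negative marrow, and Xbp1 −0.11 for lineage-negative against whole marrow. With replicate block the log2 differences that changed sign were Sdc1 0.0814 and Tnfrsf17 0.18 for AML against whole marrow. Without AML replicates 5 and 6 together the log2 differences that changed sign were Rag1 0.0922 for AML against lineage-negative marrow. Leaving out 1 library at a time, Rag1 ran from −0.93 to 0.15 for AML against lineage-negative marrow, Cd22 ran from −0.0815 to 0.60 for AML against whole marrow, Sdc1 ran from −0.35 to 0.0403 for AML against whole marrow, Mzb1 ran from −0.12 to 0.27 for AML against whole marrow, Cr2 ran from −0.27 to 0.80 for AML against lineage-negative marrow, Sdc1 ran from −0.14 to 0.25 for AML against lineage-negative marrow and Xbp1 ran from −0.17 to 0.23 for lineage-negative against whole marrow. None of the values that changed sign was called, and the cause was not tested.

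With replicate number as a replicate block, 12 genes were lower than in whole marrow, 22 higher than in lineage-negative marrow and 26 lower in lineage-negative than in whole marrow. Replicate numbers 5, 6 and 7 occur only in AML, so this fit compared AML replicates 1 to 4 alone with the normal groups. It ended the calls against whole marrow of Cd79a, Pax5, Blnk, Blk, Fcrla and Tnfrsf13c. The part of the block and that of the AML samples left aside were not told apart. Leaving out AML replicates 5 and 6 together ended those of Blnk (−0.69, adjusted p = 0.0978), Blk (−1.01, adjusted p = 0.192), Fcrla (−1.08, adjusted p = 0.165) and Tnfrsf13c (−0.89, adjusted p = 0.108). It also ended the call of Rag2 against lineage-negative marrow (−1.62, adjusted p = 0.0886). Same-numbered samples correlated at −0.29 to 0.17 in their deviations from the group means. The best match of lineage-negative replicates 1 and 2 in whole marrow had the same number, and that of replicates 3 and 4 did not. Among AML replicates 1 to 4, only replicate 4 had a best match of the same number in whole marrow. In lineage-negative marrow only AML replicate 3 did. The groups hold different cells, so weak correlations cannot decide whether the numbers pair the samples. The libraries are 7, 4 and 4, whole marrow is the shallowest group, and values under about 3 reads (1.96 to 4.10 normalized counts) carry little information. Such floors cover counting error alone, because the reads carry no molecular identifiers. The 1611 receptor genes averaged 1.90 to 3.57 normalized counts per kilobase across whole marrow libraries. AML libraries ran from 0.124 to 1.01, lineage-negative ones from 0.0998 to 0.135. Whole marrow had 7.12% to 15.7% of genes at 0, AML 23.6% to 41.4%, lineage-negative marrow 35.7% to 41.0%. Every comparison with whole marrow carries these differences. The background came to 19.3% of the whole marrow mean for Tnfrsf17, 13.8% for Cr2 and a median of 1.97% over the 30 genes.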
